A study of Homo sapiens with 12 samples.

Results

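The genes described here were 38 genes of the unfolded protein response and of the transcription factor ATF4, followed in T24 cells, an established human bladder cancer line. They were taken by gene name from a written list, and each name matched 1 of the 60504 gene entries in the deposited tables. The list fell into a chaperone arm of 19 genes, with the folding machinery, the degradation genes and the sensors of the endoplasmic reticulum (ER), and an ATF4 arm of 19 genes, with ATF4 itself and its known targets. The study asked how the level of U11, a small nuclear RNA of the minor spliceosome, affects gene expression in bladder cancer cells, and sequenced RNA from 12 libraries. In the knockout comparison, 2 libraries labelled knockout U11 were set against 2 untreated controls. In the overexpression comparison, 6 libraries labelled overexpression U11 were set against 2 other untreated controls. These 6 libraries carried the line labels 79, 86 and 87, with 2 libraries each. According to the study's methods, the knockout cells were a monoclonal line edited with CRISPR/Cas9 and a pair of guides, and the overexpressing cells were stably transfected with the plasmid pcDNA-U11 and selected as single clones. A difference between a clone and its parental cells therefore cannot be told apart from an effect of U11 in either comparison. Neither the labels nor the methods say that libraries of 1 group came from separate cultures, so P values measure the spread between libraries, which may be technical.

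The unfolded protein response adjusts the folding capacity of the ER to its load. Its sensors ATF6, IRE1 (gene ERN1) and PERK (gene EIF2AK3) sit in the ER membrane, and ATF6 and the spliced form of XBP1 switch on chaperones, disulfide isomerases and degradation factors. PERK and other kinases phosphorylate the initiation factor eIF2 alpha, which slows translation in general but raises translation of ATF4, and ATF4 then switches on genes for amino acid synthesis, amino acid import, tRNA charging and, in lasting stress, cell death. ATF4 is therefore controlled largely at translation, and its mRNA level is only a part of its activity.

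The arms are read by different DNA elements, shown here for members on which the results turn and for classic chaperone genes. Promoters of 250 bases before to 50 bases after the start were available from RefSeq (GRCh38.p14) for 35 of the 38 genes and were searched on both strands. The ER stress response element, spelled CCAAT-N9-CCACG, was found in 7 of 18 promoters of the chaperone arm and in 0 of 17 of the ATF4 arm, beside 25 of 27305 genes in all (0.0916%). The capitals mark the element in these windows, each written 5′ to 3′ on the strand of its gene.
HSPA5, chr9:125241379-125241421, minus strand: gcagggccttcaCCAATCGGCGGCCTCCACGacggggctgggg
XBP1, chr22:28800591-28800633, minus strand: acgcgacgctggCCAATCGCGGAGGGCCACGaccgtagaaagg
CRELD2, chr22:49918542-49918584, plus strand: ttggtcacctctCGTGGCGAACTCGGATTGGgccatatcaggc
CANX, chr5:179698766-179698808, plus strand: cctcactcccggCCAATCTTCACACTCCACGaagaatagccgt
In CRELD2 the element lies in the reverse orientation. The amino acid response element bound by ATF4 with its partners, spelled TGATGNAAN, was found in 6 of 17 promoters of the ATF4 arm (CHAC1, ASNS, SLC3A2, AARS, GARS and NARS) and in 1 of 18 of the chaperone arm (HERPUD1), beside 4.45% of all genes. The next windows show it in capitals for the members called below, in the reverse orientation for CHAC1 and AARS.
ASNS, chr7:97872456-97872488, minus strand: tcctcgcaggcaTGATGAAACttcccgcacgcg
AARS, chr16:70289674-70289706, minus strand: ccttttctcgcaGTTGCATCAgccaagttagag
CHAC1, chr15:40953249-40953281, plus strand: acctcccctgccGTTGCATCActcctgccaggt
The unfolded protein response element, spelled TGACGTGG or TGACGTGA, was found in 1 of 18 promoters of the chaperone arm (HYOU1) and in 0 of 17 of the ATF4 arm, beside 1.44% of all genes. Read on its other strand, TGACGTGG holds the letters CCACG that also end the ER stress response element. These matches describe letters in a window and not binding, and the arms had been chosen with this biology known.

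Levels were compared within each comparison and not between them, since the libraries differed in composition. Histone genes summed to 27661.8 to 34278.5 TPM (each gene's length-scaled share of a library's transcripts) in the 4 libraries of the knockout comparison and to 103.4 to 179.8 TPM in the 8 of the overexpression comparison, and the 10 highest genes held 45.5% to 49.6% and 7.1% to 7.6% of all TPM. The bases aligned to genes ranged from 9.075 to 15.325 gigabases over the libraries. By quantitative PCR, the study reported significantly less U11 in its knockout line and significantly more in its overexpressing line than in wild-type cells. In TPM, the U11 entry itself went against the knockout label. Its level was 31.64 and 37.4 TPM under the knockout label, above the 21.35 and 23.82 TPM of the controls. In the overexpression comparison it was 0.03 and 0.62 TPM in the controls, 0.18 and 0.41 TPM in line 79, 3.98 and 3.72 TPM in line 86 and 61.86 and 53.6 TPM in line 87, so line 79 overlapped its controls and also went against its label. The cause of the difference from the PCR was not tested, and all results below follow the labels. Keratins, which mark epithelial cells, were expressed in every library, with KRT7 between 1084.7 and 6703.2 TPM. VIM (vimentin), a filament gene of mesenchymal cells, stood at 1259.5 to 2887.4 TPM, and CD44, which is not particular to 1 cell type, at 144.1 to 398.7 TPM. Under the knockout label VIM rose from a mean of 1281.8 to 2175.4 TPM (log2 fold change 0.76, limma adjusted P = 0.0144) and KRT19 fell from 154.1 to 91.6 TPM (-0.74, limma adjusted P = 0.0194). After median ratio scaling KRT18 was also called lower (-0.61). KRT7 (1201.1 to 1196.4 TPM in the means, -0.01), KRT8 (369.5 to 385.6 TPM, 0.06) and CD44 (0.52) were not called. Of 9 markers in a second list, PTPRC, PECAM1, ALB and INS, of other cell types, stayed under 0.5 TPM throughout. UPK2 and UPK3A, of the same list, are uroplakins of differentiated urothelium, the lining of the bladder itself, and also stayed under 0.5 TPM. CD68, a macrophage marker, ranged from 1.06 to 6.31 TPM and was called higher in line 87 (a mean of 2.97 TPM in the controls and 6.29 TPM in the line, log2 fold change 0.88, limma adjusted P = 0.0645). CD3E, a T cell marker, stood at 0.502 to 0.915 TPM in control 2 and the libraries numbered 3 of the overexpression comparison, and at 0 to 0.0516 TPM in all others. PTPRC, a leukocyte marker, was split in the same way, at 0.265 to 0.496 TPM in these libraries and 0 to 0.0677 TPM in all others. CDH5, an endothelial cadherin, stood at 4.85 and 4.75 TPM in the knockout controls and 0.0316 and 0.0293 TPM under the knockout label, and at 34.1 and 32.2 TPM in line 79 against 3.08 to 5.28 TPM in the other overexpression libraries and their controls. The 9 markers summed to 6.27 to 8.46 TPM in the knockout controls, 2.96 to 2.97 TPM under the knockout label and 37 to 40.1 TPM in line 79. The part of these differences in the results below was not tested.

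In the libraries labelled U11 knockout, the ATF4 arm held 4 genes that fell, all of them in amino acid synthesis or tRNA charging, while ATF4 mRNA itself did not pass the test. No gene of the chaperone arm was called in either direction. A gene was called at an unadjusted P under 0.05 in limma and a fold change of at least 1.5 on the log2(TPM + 1) scale, the thresholds of the study. In the ATF4 arm 4 of 19 genes were called lower, beside 3.15% of the 14356 genes tested, and 1 of 19 higher, beside 8.61%. All 38 genes passed the filter of 1 TPM in 2 libraries, VLDLR only through its controls.

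ASNS (chr7:97852118-97872542), which makes asparagine from aspartate, stood at 27.1 and 24.7 TPM in the controls, against 8.21 and 8.75 TPM under the knockout label. The groups lay far apart. The log2 fold change was -1.50 ± 0.11 (SE), a fall of 2.83-fold with an adjusted P of 0.00945 from limma with Benjamini-Hochberg adjustment over all genes tested. It was the largest change of the 38 genes in this comparison.

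The serine and glycine pathway, which starts from a glycolytic intermediate and feeds the folate cycle, held 2 further genes that fell. PHGDH (chr1:119659798-119744215), its first enzyme, stood at 55.2 and 46.7 TPM in the controls, against 26.8 and 28.1 TPM under the label (log2 fold change -0.86 ± 0.12, adjusted P = 0.0275). SHMT2 (chr12:57229327-57234935), the mitochondrial enzyme that turns serine into glycine and a folate-bound carbon unit, stood at 92.4 and 93.6 TPM in the controls, against 55.2 and 54.5 TPM under the label (-0.75 ± 0.08, adjusted P = 0.0196). In both genes the controls lay above both labelled libraries, as in 20.4% of all genes tested. The other members of this pathway were not called. PSAT1, the second enzyme, stood at 57.1 and 57.2 TPM against 44.3 and 54.1 TPM, with a log2 fold change of -0.22 ± 0.12. PSPH, the last enzyme of serine synthesis, stood at 11.1 and 10.8 TPM against 8.4 and 8.15 TPM, with -0.37 ± 0.11, and has close pseudogene copies that could share its reads. MTHFD2, which takes the carbon unit on in the mitochondrial folate cycle, overlapped between groups, at 29.6 and 31.6 TPM against 33.0 and 29.8 TPM.

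Of the 4 tRNA synthetases, which load amino acids onto their tRNAs, AARS for alanine (chr16:70252295-70289543) fell from 75.1 and 78.6 TPM to 51.2 and 48.6 TPM (log2 fold change -0.61 ± 0.09, adjusted P = 0.0296). This value lay just past the fold threshold, and it was -0.58 without knockout library 2 or without control 2. SARS for serine stood at 123.5 and 130.6 TPM against 96.8 and 95.5 TPM, with a log2 fold change of -0.40 ± 0.08, and GARS for glycine at 105.5 and 107.7 TPM against 93.2 and 85.1 TPM, with -0.26 ± 0.09. Neither reached 1.5-fold, though their groups did not overlap, beside 20.4% of all genes that were lower without overlap. NARS for asparagine overlapped, at 74.6 and 80.9 TPM against 78.7 and 78.0 TPM. The partners of the large amino acid transporter were lower by similar amounts without being called. SLC3A2, the heavy chain, stood at 145.4 and 146.6 TPM against 100.4 and 111.4 TPM (-0.46 ± 0.09), and SLC7A5, the light chain that carries the substrate, at 230.9 and 221.5 TPM against 177.8 and 160.1 TPM (-0.42 ± 0.09).

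The transcription factors and stress effectors of the arm had values on either side of 0. ATF4 (chr22:39519695-39522685) stood at 156.5 and 153.6 TPM in the controls, against 166.3 and 155.7 TPM under the label, with a log2 fold change of 0.05 ± 0.08 and a limma adjusted P of 0.697. CEBPB (chr20:50190734-50192689), a leucine zipper factor that pairs with ATF4, rose from 21.3 and 20.2 TPM to 32.3 and 31.3 TPM (0.59 ± 0.10, adjusted P = 0.0376). This rise was at the fold threshold. It was 0.57 without knockout library 1, 0.55 without control 2 and 0.45 after median ratio scaling, and none of these reached 1.5-fold. SESN2, an inhibitor of the growth kinase complex mTORC1, stood at 3.59 and 3.99 TPM against 5.71 and 5.12 TPM (0.42 ± 0.13). DDIT3, the factor CHOP of stress-induced cell death, stood at 5.61 and 6.38 TPM against 7.54 and 7.9 TPM (0.32 ± 0.12). DDIT3 lies opposite MARS, which averaged 117.5 TPM beside 14.5 TPM for DDIT3, and the strand setting of the counting was not given, so reads from the 2 genes may not be told apart. TRIB3, a pseudokinase that dampens ATF4 and AKT signalling, ranged from 18.3 to 37.2 TPM in the controls alone, and the labelled libraries fell between these values. CHAC1, which degrades glutathione, stood at 2.4 and 2.24 TPM against 2.31 and 3.47 TPM and overlapped. VLDLR, a lipoprotein receptor, stood at 1.18 and 1.15 TPM against 0.712 and 0.668 TPM (-0.36 ± 0.12), a value understated by the added 1 TPM.

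**Figure D1:**
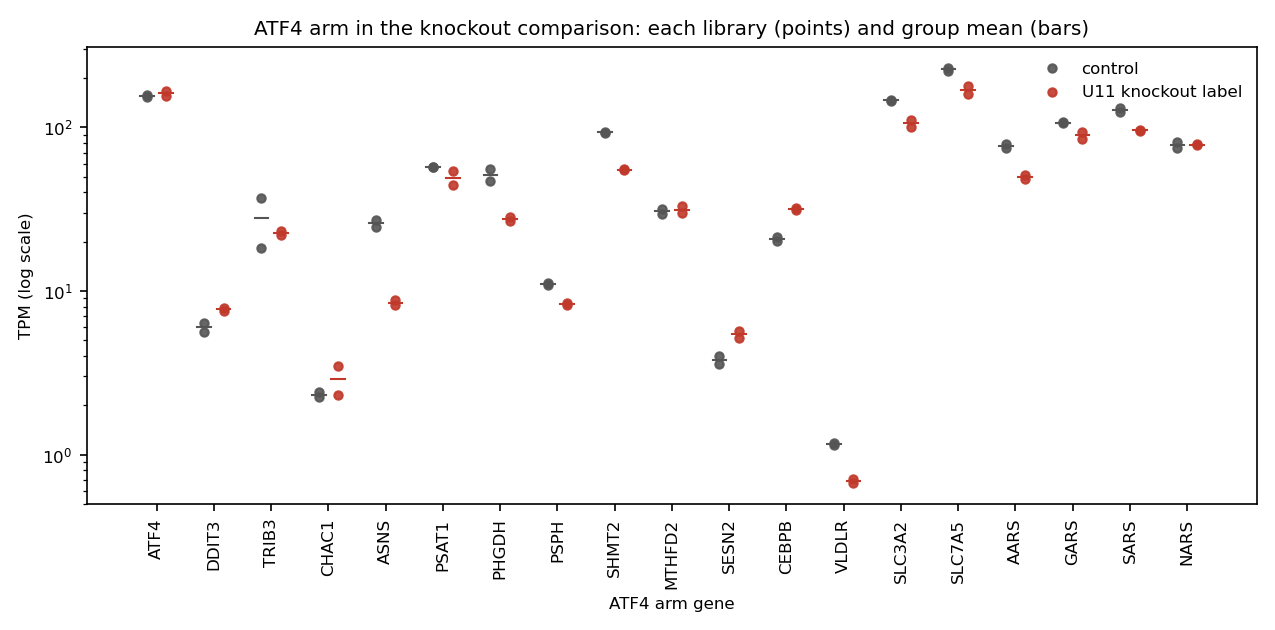
TPM (log axis) of the 19 ATF4 arm genes in the 2 control libraries (grey) and the 2 libraries labelled U11 knockout (red), with each library as a point and the group mean as a bar. ASNS showed the widest gap, from 27.1 and 24.7 TPM to 8.21 and 8.75 TPM, while ATF4 differed little between the groups.

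In the chaperone arm 0 of 19 genes were called, beside 8.61% of all genes tested called higher and 3.15% lower. At an unadjusted P under 0.05 with no fold threshold, 7 of its 19 genes were higher, beside 20.6% of all genes tested, and 1 was lower, beside 9.53%. After the median ratio scaling described below these counts were 3 and 2. HSPA5 (chr9:125234853-125241330), the chaperone BiP that holds the sensors inactive and whose mRNA is a usual readout of ER stress, stood at 168.0 and 171.7 TPM in the controls, against 176.1 and 150.4 TPM under the label, with a log2 fold change of -0.06 ± 0.10 and an adjusted P of 0.731 in limma. Its controls fell between the labelled libraries. The chaperone HSP90B1 stood at 230.1 and 268.1 TPM against 350.9 and 313.0 TPM, with 0.41 ± 0.11. The lectin chaperones went opposite ways, CALR from 522.7 and 539.5 TPM to 652.4 and 615.3 TPM (0.25 ± 0.07) and CANX from 354.1 and 361.4 TPM to 285.0 and 273.2 TPM (-0.36 ± 0.07). CALR is soluble and CANX is bound to the membrane. The disulfide isomerases PDIA3, PDIA4 and PDIA6 had log2 fold changes of 0.22, 0.02 and 0.12.

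In all 3 sensors both labelled libraries lay above both controls, as they did in 39.9% of all genes tested. ATF6 (chr1:161766294-161964070) stood at 15.6 and 16.0 TPM in the controls, against 24.7 and 22.8 TPM under the label. Its log2 fold change of 0.56 ± 0.10 had an adjusted P of 0.0467 in limma but lay just under 1.5-fold. After median ratio scaling no log2 fold change of the chaperone arm exceeded 0.41. EIF2AK3 stood at 6.11 and 6.22 TPM against 9.51 and 8.61 TPM (0.49 ± 0.12), and ERN1 at 2.0 and 2.48 TPM against 3.99 and 2.7 TPM (0.41 ± 0.19, limma adjusted P = 0.231). XBP1, spliced by IRE1 into an active factor, stood at 75.6 and 68.3 TPM against 88.4 and 86.7 TPM (0.28 ± 0.09). The tables give genes and not junctions, so the spliced form was not measured.

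The remaining members of the arm gave no common direction. CRELD2, an isomerase-like target of ATF6, stood at 27.1 and 28.2 TPM against 39.9 and 37.7 TPM (0.48 ± 0.10), and overlaps ALG12 on the other strand (13.3 TPM beside 56.6 TPM for CRELD2 on average). MANF, a secreted factor of the same response, stood at 84.0 and 77.3 TPM against 62.4 and 71.6 TPM (-0.27 ± 0.11). HERPUD1, which recruits proteins for degradation at the ER membrane, stood at 29.4 and 32.9 TPM against 27.0 and 17.1 TPM (-0.51 ± 0.23, limma adjusted P = 0.213). Its 2 labelled libraries were far apart, and its fold change was -0.83 without knockout library 1 and -0.59 without control 1, both called lower. The cochaperones DNAJB9, DNAJC3 and SDF2L1 had log2 fold changes of 0.28, 0.00 and -0.17 (DNAJB9, at 5.47 TPM on average, lies opposite THAP5 at 14.1 TPM), the degradation adaptor SEL1L 0.21 and the chaperone HYOU1 0.05.

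Described as wholes, the arms lay on different sides of 0 in the knockout comparison. The median log2 fold change was 0.21 over the chaperone arm and -0.24 over 18 genes of the ATF4 arm, beside 0.11 over all genes tested. VLDLR was left out of this median and of the next counts, since the filter kept it for its higher controls. The groups did not overlap in 11 chaperone arm genes that were higher and 4 that were lower, and in 3 of the 18 ATF4 arm genes that were higher and 10 that were lower, beside 39.9% and 20.4% of all genes. The summed TPM of the chaperone arm was 2169.8 and 2247.2 in the controls and 2436.2 and 2311.1 under the label, and that of the ATF4 arm was 1255.4 and 1236.3 against 1011.7 and 988.2. In bulk RNA, fewer cells that express a gene and less RNA per cell cannot be told apart. With the adjusted P under 0.05 in place of the unadjusted, the same 4 ATF4 arm genes were called lower, beside 2.08% of all genes.

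Scaling each library by the median ratio of its genes moved the median of all genes from 0.11 to -0.02 and the calls over all genes from 1236 higher and 452 lower to 773 higher (5.38%) and 775 lower (5.4%). The ATF4 arm then had 5 genes called lower and 0 called higher. ASNS stood at -1.64 ± 0.15, PHGDH at -1.01 ± 0.17, SHMT2 at -0.90 ± 0.12, AARS at -0.76 ± 0.11 and SLC3A2 at -0.61 ± 0.15, the last with an adjusted P of 0.0698. In the chaperone arm HERPUD1 was called lower at -0.66 ± 0.18 with an adjusted P of 0.0804 and 0 genes were called higher, and the arm's median was 0.06. The fall of the 4 ATF4 arm genes thus did not depend on this choice, while the small positive values of the chaperone arm shrank with it.

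**Figure D2:**
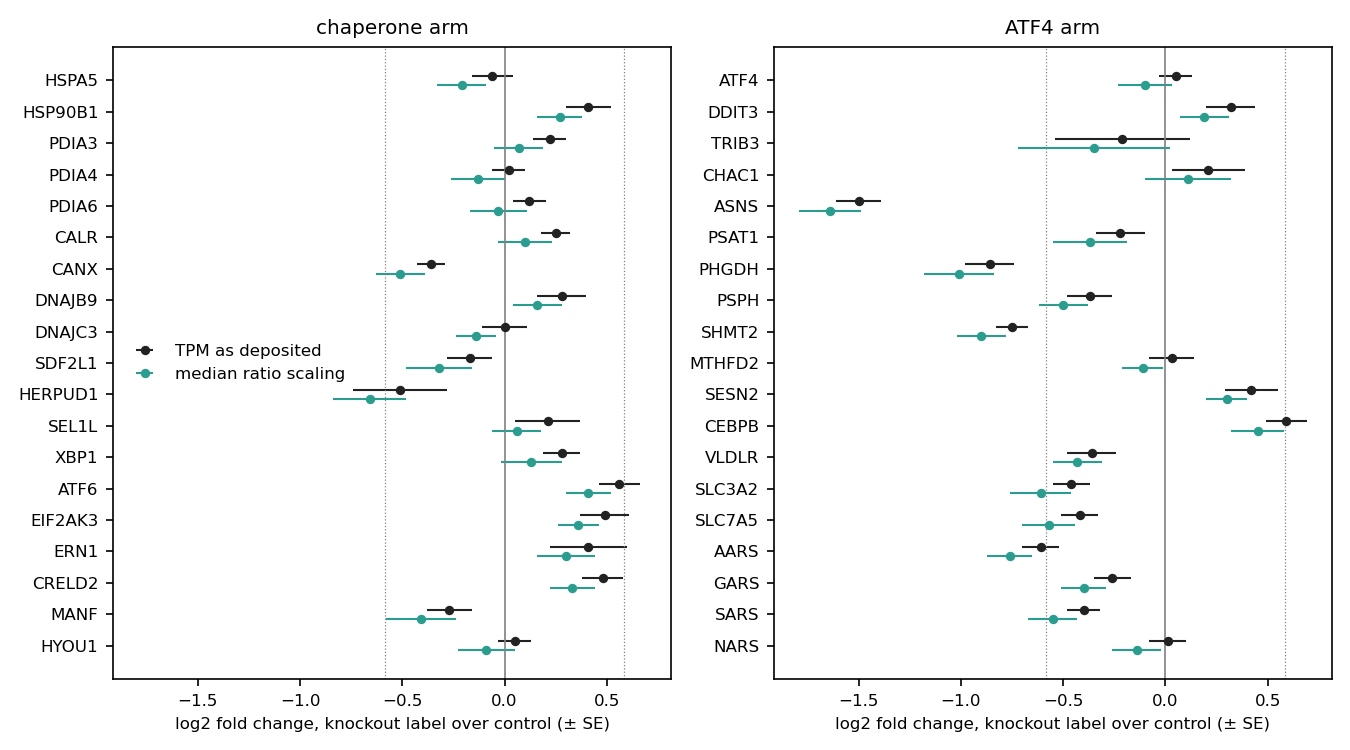
Log2 fold change of the libraries labelled U11 knockout over their controls (horizontal axis, on log2(TPM + 1), bars ± SE) for each gene of the 2 arms, with TPM as deposited in black and after median ratio scaling in green. Dotted lines mark 1.5-fold, and ASNS, PHGDH, SHMT2 and AARS lie past the left line on both scales.

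Other genes of the same pathways, from lists written with earlier results of these data known, were counted in the same fit. Of 23 other ATF4 targets tested, 5 fell, beside 3.15% of all genes, and 2 rose, beside 8.61%, with a median of -0.15. DDIT4, an mTORC1 inhibitor induced by several stresses, fell from a mean of 38.1 TPM (log2 fold change -1.70, adjusted P = 0.00644), GDF15, a secreted stress cytokine, from 8.32 to 2.09 TPM (-1.59, adjusted P = 0.0127), and PYCR1, an enzyme of proline synthesis, from 51.2 to 25.5 TPM (-0.98, adjusted P = 0.022). SLC7A11, the cystine importer, rose from 8.87 to 23.0 TPM (1.29, adjusted P = 0.021). Of 16 other cytosolic tRNA synthetases, 15 had a log2 fold change below 0, beside 5209 of 14356 genes in all, and the median was -0.17. CARS was called lower (-0.73, limma adjusted P = 0.0265), beside 3.15% of all genes, and WARS higher (0.87, limma adjusted P = 0.137), beside 8.61%. After median ratio scaling LARS and KARS were called lower as well. Of 30 other ER folding and translocation genes, 2 rose, beside 8.61% of all genes. These were SEC63 (0.62, limma adjusted P = 0.102) and PDIA5 (0.59, limma adjusted P = 0.041). In this list 27 of 30 lay above 0, beside 9147 of 14356 genes in all, and the median was 0.27, beside 0.11. After median ratio scaling 23 lay above 0, the median was 0.12 and SPCS2 was called lower. Of 17 ER-associated degradation genes tested, OS9 (0.62, limma adjusted P = 0.0845) and ERLEC1 (0.61, limma adjusted P = 0.0422) rose. Of 16 other sensors and regulators ATF3 rose (0.69, limma adjusted P = 0.0457). These were 2 of 17 and 1 of 16 genes, beside 8.61% of all genes. After median ratio scaling SEC63, PDIA5, OS9 and ERLEC1 were no longer called. In a list of 12 heat shock genes 0 were called, beside 8.61% of all genes called higher and 3.15% lower. In that list 3 had an unadjusted limma P under 0.05, beside 4319 of 14356 genes in all.

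In the overexpression comparison 0 of the 38 genes were called over the 6 labelled libraries, beside 0.767% of the 15768 genes tested called higher and 1.16% called lower. At an unadjusted P under 0.05 with no fold threshold the count was 0 of 38, beside 6% of all genes. The fit took the 6 libraries as separate, though libraries of the same line are not independent of each other. Its P values, here and for the other lists, do not allow for this. The median log2 fold change was -0.06 over the chaperone arm and 0.02 over the ATF4 arm, beside -0.02 over all genes. The 3 largest values in the ATF4 arm were TRIB3 at 0.53 ± 0.37 (limma adjusted P = 0.91), GARS at -0.29 ± 0.14 and SLC7A5 at -0.27 ± 0.38. The controls of GARS lay apart at 250.4 and 170.6 TPM, the second inside the 157.1 to 187.5 TPM of the labelled libraries. In the chaperone arm the 3 largest were XBP1 at -0.33 ± 0.17 (limma adjusted P = 0.889), PDIA3 at -0.20 ± 0.18 and ERN1 at -0.20 ± 0.14. ATF4 stood at 558.3 and 546.5 TPM in the controls, against 549.0 to 669.7 TPM (median 571.0) in the 6 labelled libraries. HSPA5 stood at 592.6 and 582.5 TPM in the controls, against 499.6 to 661.0 TPM (median 533.9), so the controls fell inside the range of the labelled libraries.

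Within that range the line labels differed from each other. A moderated F test among lines 79, 86 and 87 passed an adjusted P of 0.05 in 11 of the 38 genes, 6 of the chaperone arm and 5 of the ATF4 arm, beside 16% of all genes tested. The count depended on single libraries. It was 5 to 9 when 1 library was left out, with 5 without line 79 number 1 and 7 without line 86 number 3. After median ratio scaling it was 9, 4 of the chaperone arm and 5 of the ATF4 arm, without PDIA3 and CRELD2. Comparisons of a single line with the controls share the same 2 control libraries and are given side by side.

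**Figure D3:**
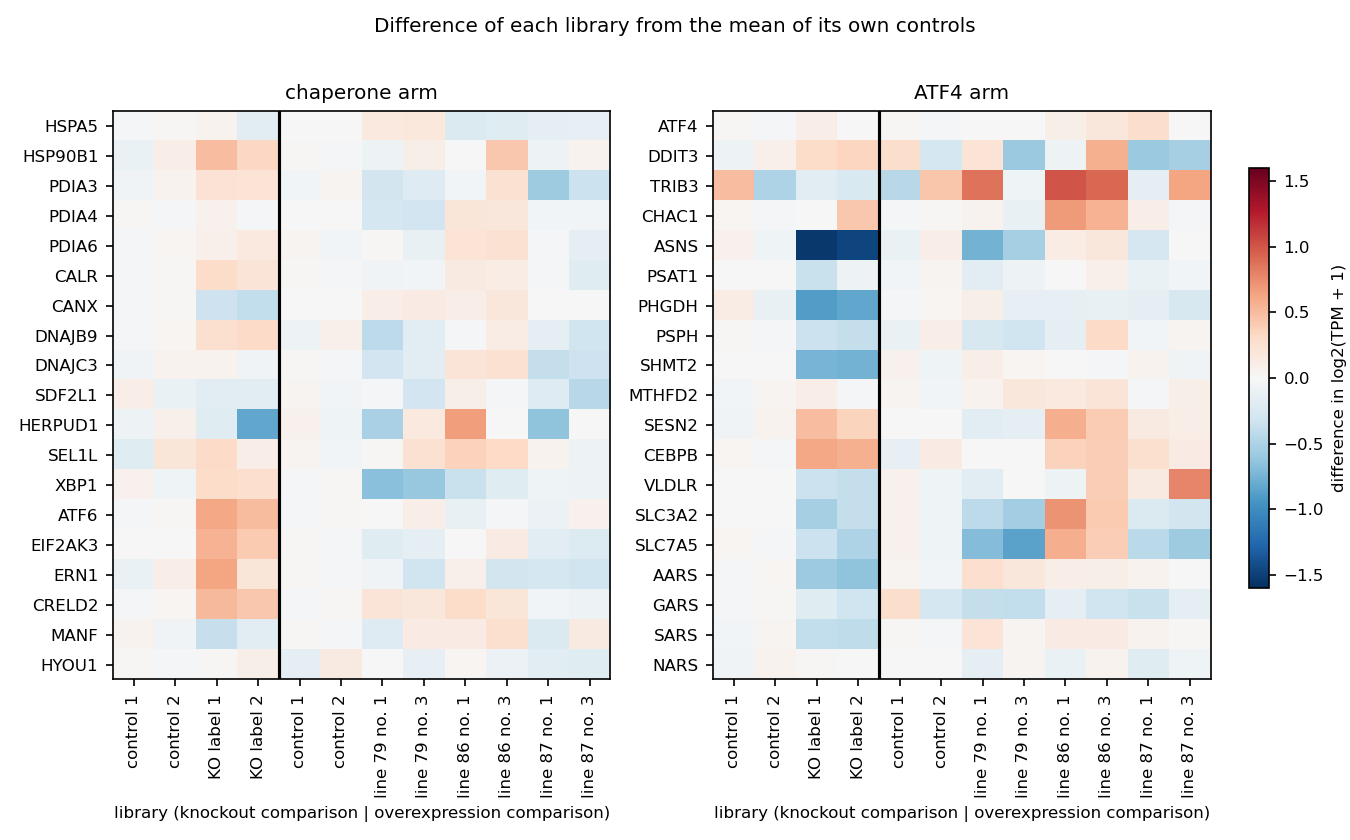
Difference of each library from the mean of its own controls in log2(TPM + 1) (colour, red higher and blue lower) for the chaperone arm (left) and the ATF4 arm (right), with the knockout comparison left of the black line and the overexpression comparison right of it. SLC7A5 and SLC3A2 were lower in both libraries of line 79 and higher in both of line 86, and ASNS was lowest under the knockout label.

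The amino acid transporter SLC7A5 with its heavy chain SLC3A2 showed the widest differences among lines. SLC7A5 (chr16:87830023-87869488) measured 1262.7 and 1141.4 TPM in the controls, 740.2 and 662.9 TPM in line 79, 1795.4 and 1572.0 TPM in line 86 and 887.2 and 806.2 TPM in line 87. Line 86 lay above the controls, and lines 79 and 87 lay below them, with no overlap. Of 15768 genes tested, 3711 lay above in this way in line 86, and 4842 and 4021 lay below in lines 79 and 87. Its log2 fold change was -0.78 ± 0.10 in line 79 (adjusted P = 0.00693, called lower), 0.48 ± 0.10 in line 86 (adjusted P = 0.0812) and -0.50 ± 0.10 in line 87 (adjusted P = 0.0506), and the F test among lines gave an adjusted P of 0.00169. SLC3A2 (chr11:62856102-62888875) measured 527.5 and 480.7 TPM in the controls, 375.5 and 341.9 TPM in line 79, 829.7 and 674.1 TPM in line 86 and 430.2 and 410.7 TPM in line 87. The order of the lines was that of SLC7A5. Its log2 fold change in line 86 was 0.57 ± 0.11 (adjusted P = 0.0698), just under 1.5-fold, and was called higher without line 86 number 3 (0.72) or control 1 (0.64). Lines 79 and 86 differed by -1.06 ± 0.11 in SLC3A2 and by -1.26 ± 0.10 in SLC7A5 on the log2 scale, with adjusted P values of 0.00305 and 0.00126 in limma.

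ASNS, CHAC1 and SESN2 also separated line 86 from line 79. ASNS measured 46.4 and 54.0 TPM in the controls, 29.2 and 34.3 TPM in line 79, 54.5 and 56.9 TPM in line 86 and 41.2 and 49.9 TPM in line 87. Only line 79 was called, at -0.65 ± 0.13 (adjusted P = 0.0304), and this call was lost without line 79 number 1 (-0.53) or without control 2 (-0.54). CHAC1 (chr15:40952962-40956519) measured 22.0 and 22.7 TPM in the controls, 23.3 and 20.5 TPM in line 79, 36.4 and 33.2 TPM in line 86 and 24.2 and 21.8 TPM in line 87. It rose in line 86, by 0.62 ± 0.10 on the log2 scale (adjusted P = 0.0393), and was 0.55 without line 86 number 1, under the fold threshold. SESN2 measured 15.5 and 15.3 TPM in the controls, 13.5 and 13.9 TPM in line 79, 23.5 and 20.8 TPM in line 86 and 17.1 and 16.7 TPM in line 87. Its value in line 86 was 0.50 ± 0.09 (adjusted P = 0.0496), short of 1.5-fold. The F tests among lines gave adjusted P values of 0.0204 for ASNS, 0.0122 for CHAC1 and 0.0103 for SESN2.

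TRIB3 could not be placed. It measured 45.5 and 84.6 TPM in the controls, 113.8 and 59.4 TPM in line 79, 125.9 and 118.2 TPM in line 86 and 55.4 and 96.7 TPM in line 87. The controls alone spanned much of the range of lines 79 and 87, and the value of 0.96 ± 0.42 in line 86 had an adjusted P of 0.4 in limma. It was called higher without line 79 number 1 or 3 (0.96) or without control 2 (1.40). DDIT3 varied in the same way, at 12.4 to 29.2 TPM over the labelled libraries and 23.7 and 15.7 TPM in the controls. VLDLR reached 7.23 and 11.8 TPM in line 87 against 6.84 and 6.11 TPM in the controls (0.46 ± 0.24).

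In the chaperone arm, XBP1 (chr22:28794555-28800597) was the 1 gene called against the controls in any line. It measured 186.6 and 191.6 TPM in the controls, 119.0 and 123.5 TPM in line 79, 148.0 and 165.6 TPM in line 86 and 180.0 and 178.0 TPM in line 87. All 6 labelled libraries lay below both controls, as in 827 of the 15768 genes tested. The log2 fold change was -0.64 ± 0.07 in line 79 (adjusted P = 0.00447, called lower), -0.27 ± 0.07 in line 86 (adjusted P = 0.166) and -0.08 ± 0.07 in line 87. Lines 79 and 87 differed by -0.56 ± 0.07 (adjusted P = 0.00569). HSPA5 had another order. It stood at 656.3 and 661.0 TPM in line 79, 499.6 and 511.8 TPM in line 86 and 532.7 and 535.1 TPM in line 87, and differed between lines 79 and 86 by 0.38 ± 0.05 (adjusted P = 0.0059).

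The other 4 chaperone arm genes past the F test were higher in line 86 than in another line. PDIA4 stood at 278.1 and 272.9 TPM in line 79, 388.3 and 382.9 TPM in line 86 and 328.7 and 328.6 TPM in line 87 against 336.0 and 341.4 TPM in the controls. DNAJC3, the cochaperone that inhibits eIF2 alpha kinases, stood at 22.7 and 25.2 TPM in line 79, 32.8 and 33.6 TPM in line 86 and 21.5 and 22.3 TPM in line 87 against 28.8 and 27.9 TPM in the controls. Lines 79 and 87 had neighbouring values in DNAJC3, and their difference did not pass an adjusted P of 0.05. Between lines 86 and 87, DNAJC3 differed by 0.58 ± 0.08 (adjusted P = 0.0114), PDIA3 by 0.56 ± 0.12 (adjusted P = 0.0443) and CRELD2 by 0.31 ± 0.07 (adjusted P = 0.0457). The adjusted P values of the F tests were 0.00817 for HSPA5, 0.0476 for PDIA3, 0.00487 for PDIA4, 0.00959 for DNAJC3, 0.00879 for XBP1 and 0.0418 for CRELD2.

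**Figure D4:**
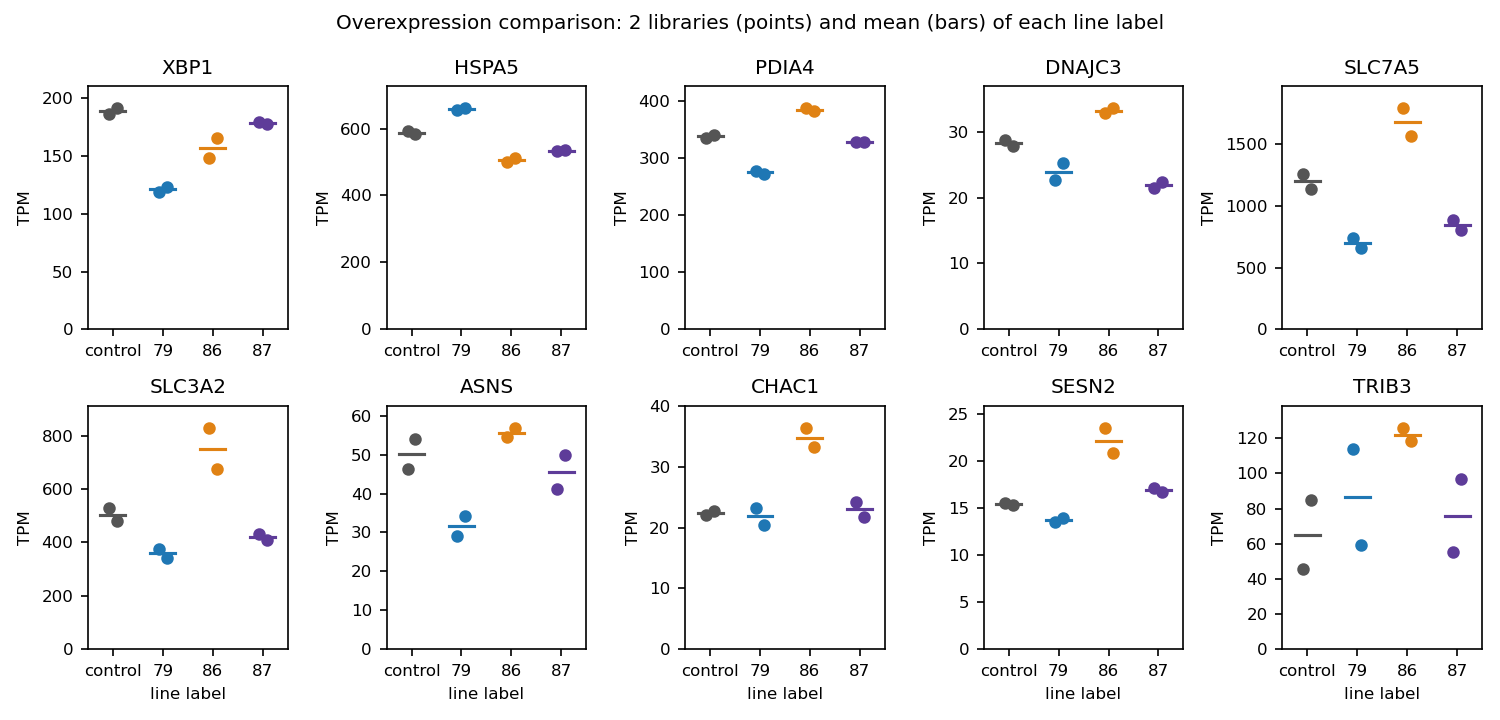
TPM of 10 genes in the overexpression comparison (linear axes from 0), with the 2 libraries of the controls and of lines 79, 86 and 87 as points and their mean as a bar. SLC7A5 was highest in line 86 (1795.4 and 1572.0 TPM) and lowest in line 79 (740.2 and 662.9 TPM), and XBP1 was lowest in line 79, while the 2 controls of TRIB3 lay apart at 45.5 and 84.6 TPM.

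By line, the calls over both arms were few. Line 79 had 3 of 38 genes called lower (SLC7A5, ASNS and XBP1), beside 5.52% of all genes, and 0 called higher, beside 2.43%. Line 86 had 1 of 38 called higher (CHAC1), beside 1.59%, and 0 lower, beside 2.01%. Line 87, where U11 was highest, had 0 called higher, beside 2.08%, and 0 lower, beside 3.05%. At an unadjusted P under 0.05 with no fold threshold, line 79 had 3 genes higher and 6 lower, beside 8.21% and 15.8% of all genes, line 86 had 11 higher and 2 lower, beside 6.98% and 6.51%, and line 87 had 0 higher and 5 lower, beside 8.21% and 9.56%. After median ratio scaling the 5 of line 87 became 3. Over the chaperone arm the median log2 fold change was -0.07 in line 79, 0.13 in line 86 and -0.12 in line 87, and over the ATF4 arm it was -0.05, 0.15 and 0.00, beside -0.03, 0.01 and -0.01 over all genes. All 19 genes of the chaperone arm had a fitted value below 0 in line 87, beside 8131 of the 15768 genes tested, and 15 of 19 did after median ratio scaling. The largest were PDIA3 at -0.46 ± 0.12, DNAJC3 at -0.36 ± 0.08 and HERPUD1 at -0.33 ± 0.33. Codes in the sample titles put the 6 libraries in 2 series, numbers 1 and 3 of each line, each with 1 control, and the labels do not say what the codes mark. Within the series the difference of line 79 from its control was -0.77 and -0.78 for SLC7A5, -0.65 and -0.64 for ASNS and -0.64 and -0.63 for XBP1, and that of line 86 was 0.70 and 0.53 for CHAC1. TRIB3 in line 79 changed sign between the series, at 1.30 and -0.50.

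Among the other lists, line 79 had 5 of 23 ATF4 targets called lower, beside 5.52% of all genes. They were led by SLC1A4 (17.1 to 8.49 TPM in the means, -0.93), SLC7A11 (-0.67) and GDF15 (-0.67, limma adjusted P = 0.103). These encode carriers of neutral amino acids and of cystine and the stress cytokine. In line 79 DDIT4 was the 1 of these 23 called higher (0.67), beside 2.43% of all genes. Line 86 had DDIT4 (179.8 to 404.7 TPM, 1.17, limma adjusted P = 0.00138) and GDF15 (0.65, limma adjusted P = 0.236) called higher, 2 of 23 beside 1.59% of all genes. CREB3L2, an ER-bound factor related to ATF6, was the 1 of 16 sensors and regulators called in line 86. It rose from 30.7 to 139.4 TPM (2.20 ± 0.43, limma adjusted P = 0.0698). Line 87 had SLC6A9 (-0.62) and SLC7A1 (-0.60) called lower, 2 of 23 beside 3.05% of all genes. SLC7A1 was no longer called after median ratio scaling (-0.58). Of 18 degradation genes EDEM3 (-0.68) and VIMP (-0.66) fell in line 79, beside 5.52% of all genes. Of the 30 ER folding and translocation genes the calcium-binding gene CALU fell in that line (-0.66). No other cytosolic tRNA synthetase was called in any line, beside 1.59% to 2.43% of all genes called higher and 2.01% to 5.52% lower. At an unadjusted P under 0.05 the count of 16 was 0 in lines 79 and 86 and 1 in line 87. Over all 15768 genes tested it was 3793 in line 79, 2127 in line 86 and 2803 in line 87. Of 12 heat shock genes, HSPB1 fell in line 79 (-0.89), and HSPE1, a mitochondrial chaperonin placed in that list, was called lower in each of the 3 lines and fell over the 6 libraries from 322.1 to 191.0 TPM (-0.75, adjusted P = 0.014). These were 2 of 12 in line 79, beside 5.52% of all genes called lower, and 1 of 12 over the 6 libraries, beside 1.16%.

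The difference between the knockout effect and the mean effect of the 3 lines was tested in a fit of all 12 libraries, and passed an adjusted P of 0.05 in 10 of the 38 genes, beside 11.9% of 16404 genes. In the ATF4 arm ASNS, PHGDH, SHMT2, AARS and SARS were lower under the knockout label than under overexpression, each against its own controls. The differences were -1.29 ± 0.16 for ASNS (adjusted P = 0.00145), -0.77 ± 0.09 for SHMT2 (adjusted P = 0.00121), -0.75 ± 0.13 for PHGDH (adjusted P = 0.00808), -0.73 ± 0.09 for AARS (adjusted P = 0.00118) and -0.50 ± 0.09 for SARS (adjusted P = 0.0103). In the chaperone arm XBP1 (0.61 ± 0.10), EIF2AK3 (0.59 ± 0.12), ATF6 (0.57 ± 0.11) and CRELD2 (0.35 ± 0.09) differed upwards and CANX (-0.44 ± 0.07) downwards. After median ratio scaling XBP1 (0.44) and CRELD2 (0.19) no longer passed. With 1 of the 12 libraries left out, ATF6 was lost without knockout library 1, knockout control 1 or overexpression control 2 (0.51 to 0.56), EIF2AK3 without knockout library 1, knockout control 1 or overexpression control 1 (0.52 to 0.58), and CRELD2 without any of 10 libraries (0.31 to 0.38), all but knockout library 2 and line 86 number 1. SLC7A5, SLC3A2 and ATF4 did not pass in this test, at -0.16 ± 0.13, -0.40 ± 0.14 and -0.04 ± 0.12. The libraries of the 2 comparisons differed in composition, which cannot be told apart from the treatment in this test.

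**Figure D5:**
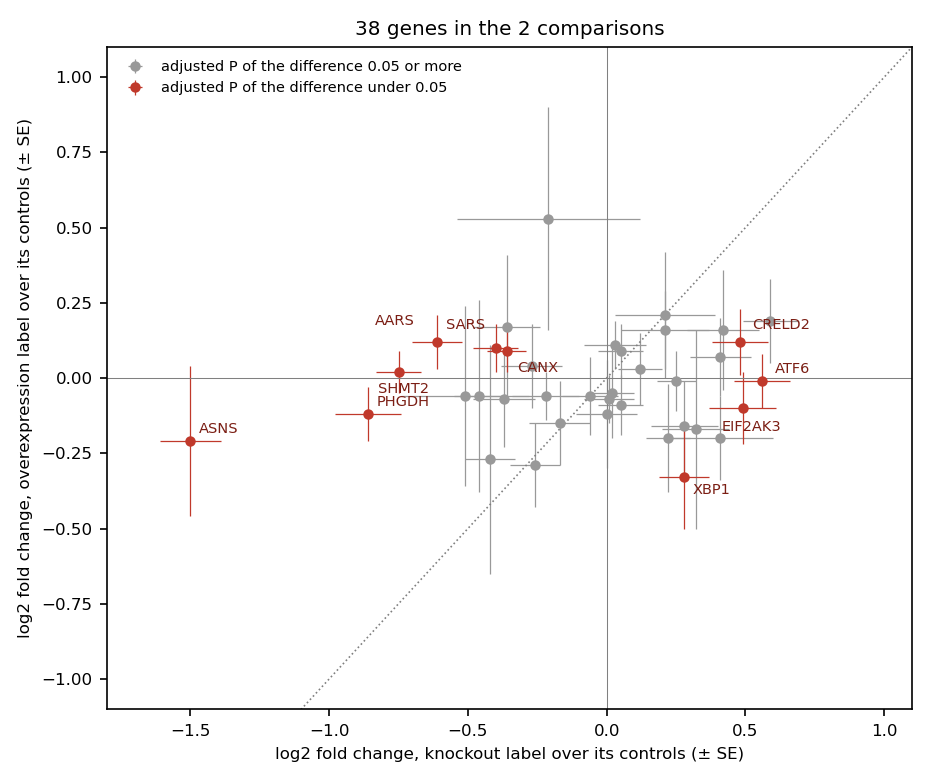
Log2 fold change (on log2(TPM + 1), ± SE) of the 38 genes under the knockout label (horizontal axis) and the overexpression label (vertical axis), each over its own controls, with red marking the 10 genes whose difference passed an adjusted P of 0.05. ASNS, PHGDH, SHMT2 and AARS lie far left at -1.50, -0.86, -0.75 and -0.61, near 0 on the vertical axis for SHMT2, and the dotted line marks equal values.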

How the data were processed

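Gene expression was read from 12 tables of T24 cells, 1 for each library. The authors trimmed the reads with fastp, aligned them to hg38 with Hisat2 and ran Stringtie, and deposited for each gene the coverage (a signal), the FPKM and the TPM. The authors named DESeq2 for differential genes, but the tables hold no counts, so count tests were not run. The labels name polyA RNA, while the study's methods name removal of ribosomal RNA. Strand handling was not given in the sources used here. The TPM came without counts, so counting error could not be modelled and precision came from the spread between libraries. Aligned bases were derived from coverage divided by FPKM.

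Genes with at least 1 TPM in 2 libraries of a fit were tested on log2(TPM + 1) with a trended moderated fit (limma 3.58.1, R 4.3.3), checked on simulated data, and P values were adjusted by Benjamini-Hochberg over all genes tested. SE is that of limma. The line labels were fitted together with their controls, and the comparisons were set against each other in a fit of 6 groups. Named were all called members, the 3 largest values in each arm and comparison, and up to 4 called genes of each other list. The members and lists were chosen with earlier results of these data known. Alternatives were a pseudocount of 0.1, FPKM, median ratio scaling, other filters, other call rules, replicate blocks and leaving out each library. For the overexpression label, the mean of each line label was a further alternative. Gene coordinates are those of the tables (hg38), and promoter sequences those of RefSeq (GRCh38.p14). Python 3.11.15 was used.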

Additional observations from a re-analysis of the deposited data

Results flagged for a closer look

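In each of the 38 genes the highest and lowest of the 6 overexpression libraries were compared with the gap allowed by Dixon's limit, which chance exceeds in about 1 of 20 groups. The highest library stood apart from the others in HSP90B1, at 990.5 TPM in line 86 number 3, and in PHGDH, at 199.5 TPM in line 79 number 1. At that rate such gaps arise by chance in a search of 38 genes, so these cannot be told apart from chance. The limit also assumes that the 6 values form a single group, while they came from lines that differed in several genes.

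A difference between the effect under the knockout label and the mean effect of the 3 lines, by its own test, was found for ASNS (-1.29), SHMT2 (-0.77), PHGDH (-0.75), AARS (-0.73), SARS (-0.50) and CANX (-0.44), which were lower under the knockout label, and for XBP1 (0.61), EIF2AK3 (0.59), ATF6 (0.57) and CRELD2 (0.35), which were higher, all on the log2 scale.

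A difference among lines 79, 86 and 87 passed the F test, with adjusted P values of 0.00169 for SLC7A5, 0.00401 for SLC3A2, 0.00487 for PDIA4, 0.00817 for HSPA5, 0.00879 for XBP1, 0.00959 for DNAJC3, 0.0103 for SESN2, 0.0122 for CHAC1, 0.0204 for ASNS, 0.0418 for CRELD2 and 0.0476 for PDIA3. These differences were not related to the U11 level of the lines by a test.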

How the results depend on the processing

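Under the knockout label, FPKM or median ratio scaling gave 1 chaperone arm gene called lower in place of 0 and 0 ATF4 arm genes called higher in place of 1. With no fold threshold (20.6% of all genes higher and 9.53% lower), 7 chaperone arm genes were higher and 1 lower, and 2 ATF4 arm genes were higher and 10 lower, VLDLR among them. Leaving out each library in turn gave 0 to 2 and 0 to 1 for chaperone arm genes called higher and lower, and 0 to 1 and 3 to 4 for ATF4 arm genes. The counts moved without knockout library 1 (HERPUD1 called lower, CEBPB lost), knockout library 2 (2 chaperone arm genes higher, ATF6 among them, and AARS lost), control 1 (HERPUD1 called lower) and control 2 (CEBPB and AARS lost). In the overexpression comparison all counts stayed at 0 when a library was left out. Counts of 2 to 3 genes were called in line 79, 0 to 2 in line 86 and 0 to 1 in line 87. In line 86 the count was 0 without its number 1 and 2 without line 79 number 1 or 3, line 86 number 3 or either control, and in line 87 it was 1 without its number 1 (VLDLR at 0.77). The F test among lines passed in 5 to 9 genes, with 5 without line 79 number 1 and 7 without line 86 number 3, and the test between comparisons in 7 to 11. HERPUD1 in line 86 changed sign, from 0.33 to -0.01 without line 86 number 1, and was 0.67 without its number 3. The cause of these changes was not tested.

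Replicate numbers did not pair the knockout libraries (correlation of deviations 0.027), and the series coded in the sample titles did so only in part in the overexpression comparison (0.064 to 0.151). With a replicate block, the ATF4 arm had 4 genes lower and 1 higher under the knockout label, and the F test among lines passed in 13 genes. The block brought PDIA6 and SDF2L1 past the F test, and changed no call of the single genes named in the comparisons with controls. Of the values of single genes under all alternatives, 511 kept their sign and their status as called or not called, 27 lost a call, 11 gained one and 1 reversed its sign. The 511 include genes named for large values that were not called to begin with. In the test between comparisons, an adjusted P under 0.05 took the place of a call. The alternatives for single lines and for the difference tests that leave out a library were added after seeing the data. Levels near 1 TPM, such as VLDLR under the knockout label, limit what a fold change can show.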
